A study of Mus musculus with 10 samples.

Results

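The genes examined here make cholesterol and fatty acids in the cell, and they were measured in a mouse lung cancer line with and without the antiseizure medication stiripentol. There are 40 of them among the 26335 rows of the expression table, chosen by gene symbol as members of the pathway that SREBP transcription factors control, and each symbol matched 1 row. They fall into 20 sterol synthesis enzymes (8 from acetyl-CoA to the isoprenoids and 12 from squalene to cholesterol), 11 genes of SREBP control, sterol transport, export and the LXR receptors, and 9 fatty acid enzymes. The line, one of the mouse small cell lung cancer (SCLC) lines of the study, was derived from a tumour of mice with conditional deletion of tumour suppressor genes, Rb1 included, started by Adeno-Cre virus in the airways, so both control and treated cells carry these deletions. It is 1 line, and cells of both groups were grown in RPMI medium with fetal bovine serum, a source of sterols and lipids from outside the cell. Controls had DMSO and treated cells 250 μM stiripentol for 48 h, with 5 RNA libraries in each group. The labels do not say whether the libraries came from separate cultures, so the p-values measure the spread between these libraries.

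As background, sterol synthesis joins acetyl-CoA units into mevalonate, converts mevalonate into isoprenoid units, condenses these into squalene, and closes and trims squalene into cholesterol. The transcription factor SREBP-2, encoded by Srebf2, drives these enzymes, and SREBP-1, encoded by Srebf1, drives fatty acid enzymes more strongly. Scap carries both SREBPs out of the endoplasmic reticulum when sterols are scarce, and Insig1 and Insig2 hold Scap there when sterols are abundant. The LXR receptors Nr1h2 and Nr1h3 respond to oxidized sterols and drive the exporters Abca1 and Abcg1.

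The recovered depth was 22375625 to 65299372 reads in controls and 55015760 to 60670901 reads in stiripentol libraries. The values are log2 CPM, the log2 of the reads of a gene scaled to the depth of its library (CPM) with a small prior added, so they compare libraries for 1 gene and not genes with each other. The libraries of each group formed 2 clusters, with correlations across genes of 0.983 to 0.997 within a cluster and 0.920 to 0.939 between the clusters of a group. The clusters are called library set A (controls 4 and 5, stiripentol 1 and 2) and library set B (controls 1 to 3, stiripentol 3 to 5). Which control cluster belongs with which stiripentol cluster rests on library numbers in a table of the study and is not in the labels, and the difference of set A and set B in controls correlated with that in stiripentol libraries at 0.211 over 12306 genes. A gene with no reads was set to -4.82 in controls 1 to 3 and to -4.74 in the other 7 libraries, so the prior differed between these libraries. Markers of the labelled cell type were largely absent, with at most 10 reads of Insm1 in any library, at most 20 of Syp and 33 to 175 of Uchl1, while Ncam1 had 2627 to 9215 reads and was higher with stiripentol (summed level of the list 93.4 to 120 CPM in controls and 127 to 157 CPM with stiripentol). Neurod1, Chga and Calca were not analysed here. Fibroblast markers were present, and 3 of the 5 tested (Col3a1, Pdgfra and Pdgfrb) were lower with stiripentol, the summed level of the 6 listed being 397 to 684 CPM in controls and 149 to 184 CPM with stiripentol. Of the leukocyte markers, Cd68 was higher with stiripentol (sum 4.27 to 18.4 CPM against 55.2 to 103 CPM) while Ptprc had at most 3 reads in any library. The 3 tuft cell markers went different ways. Avil was higher with stiripentol and dominated the treated sum (1.86 to 6.94 CPM against 25.1 to 59.7 CPM), while Pou2f3 (mean log2 CPM 0.99 in controls and -2.53 with stiripentol) and Trpm5 (-1.98 and -3.63) were under the filter and not tested, with every stiripentol library below every control. The endothelial sum was at most 1.07 CPM in every library, as were the only alveolar marker analysed, Sftpb, and the only adipocyte marker analysed, Adipoq. The part of these markers in the results below was not tested, and in bulk RNA fewer cells of a type and less RNA per cell cannot be told apart.

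Stiripentol libraries had less mRNA of most sterol synthesis enzymes, of the sterol carrier Stard4 and the factor Srebf2, and of 5 fatty acid enzymes (Acly, Fasn, Elovl6, Scd1 and Scd2). Of the 40 genes, 38 passed the filter on low values (mean log2 CPM above 0 over all 10 libraries), 24 were called lower, 0 were called higher and 14 were not called (limma, Benjamini-Hochberg adjusted p under 0.05 over 12306 genes). Across all genes tested, 14.1% were called lower and 13.6% higher. The median log2 change was -1.03 over the 38 genes and -0.06 over all genes tested. In 22 of the 38, every stiripentol library lay below every control, which was the case for 14.3% of all genes tested. By branch, 17 of 20 sterol enzymes were called lower, 5 of 9 fatty acid enzymes, and 2 of the 9 tested genes of control, transport and export. With each cluster reduced to its mean, which left 2 values against 2, 0 of the 38 and 0 of all genes tested passed the adjusted threshold (limma). Of the 38, 20 had an unadjusted p under 0.05. The share of all genes at that unadjusted threshold was not counted, so the 20 have no background beside them. The call of Acly was lost when any control or stiripentol 1 or 2 was left out, that of Fdft1 without stiripentol 3, 4 or 5, and those of Ebp, Fdft1 and Sc5d under median-of-ratios scaling.

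**Figure D1:**
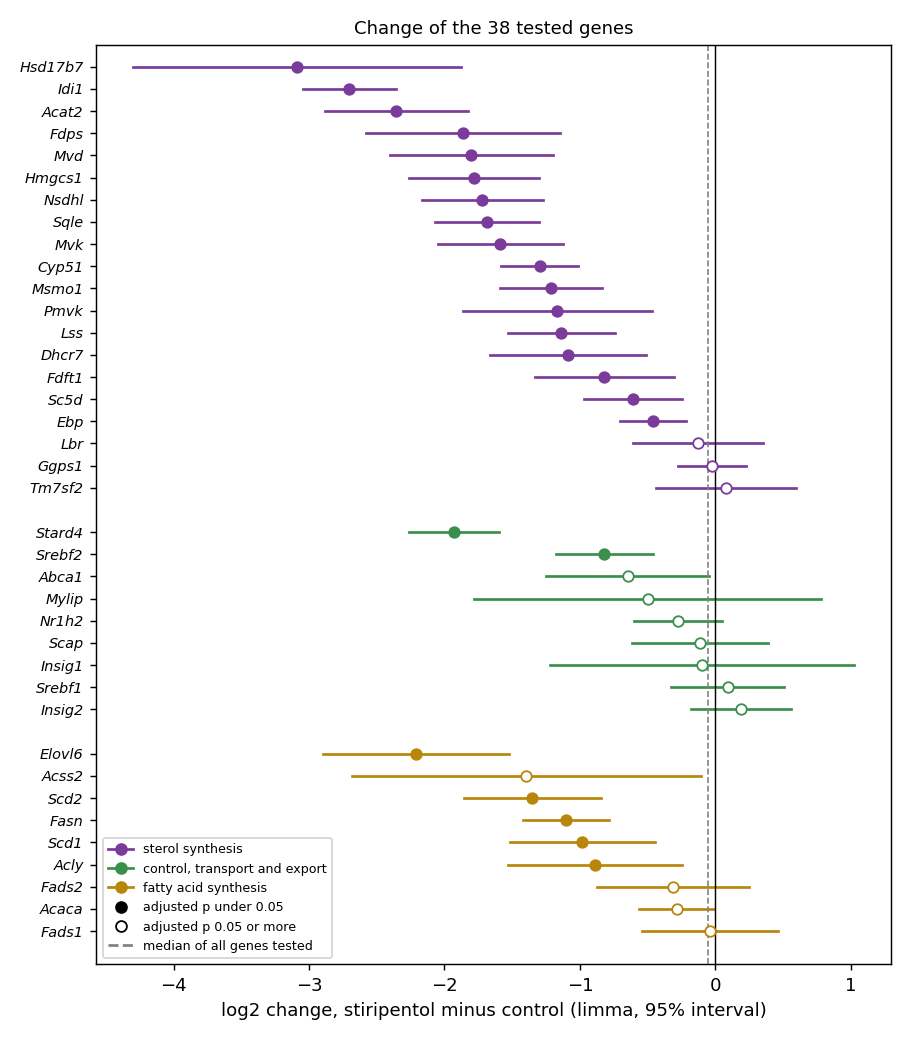
Log2 change (stiripentol minus control, x axis) of the 38 tested genes, with the 95% interval of the limma fit over 5 against 5 libraries, grouped by branch and sorted within it. Filled points passed an adjusted p of 0.05, and the 24 filled points all lie left of 0, from Hsd17b7 at -3.09 to Ebp at -0.46, while the dashed line gives the median of all genes tested.

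The first segment, from acetyl-CoA to the isoprenoids, fell in 7 of its 8 enzymes, with a median log2 change of -1.79. Acat2, the cytosolic thiolase that joins 2 acetyl-CoA, measured 6.95, 6.75, 6.32, 7.14 and 7.40 log2 CPM in controls 1 to 5 and 4.12, 4.10, 4.99, 4.73 and 4.85 in stiripentol libraries 1 to 5. All treated libraries lay below all controls, and the fall was 5.12-fold (log2 change -2.35, SE 0.24, limma adjusted p = 0.000181). A near-identical neighbour, Acat3, shares 1477 aligned bases with it at 97.7% identity and had 254 reads in controls and 227 with stiripentol, against 32127 and 7043 for Acat2. A stretch of 445 bases at 98.7% identity is shared with Tcp1, which had more reads (153239 in controls and 135188 with stiripentol), so how reads of that stretch were assigned is uncertain. Hmgcs1, the synthase of the next step, measured 7.82, 7.62, 6.93, 6.72 and 7.30 log2 CPM in controls 1 to 5 and 5.59, 5.92, 5.35, 5.26 and 5.35 in stiripentol libraries 1 to 5. The groups stood apart here too (log2 change -1.78, SE 0.22, limma adjusted p = 0.00046).

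The 2 kinases and the decarboxylase that turn mevalonate into isopentenyl pyrophosphate fell together. Mvk measured 4.87, 4.55, 4.32, 4.19 and 4.26 log2 CPM in controls 1 to 5 and 2.44, 2.49, 3.15, 3.17 and 2.98 in stiripentol libraries 1 to 5. Its lowest treated values were in stiripentol 1 and 2 (log2 change -1.59, SE 0.21, limma adjusted p = 0.000668). Pmvk measured 4.76, 4.86, 4.29, 5.88 and 6.02 log2 CPM in controls 1 to 5 and 4.13, 4.28, 3.91, 3.91 and 3.76 in stiripentol libraries 1 to 5. The controls themselves were split, with controls 4 and 5 above the other 3, and control 3 lay just above the highest treated library (log2 change -1.17, SE 0.32, limma adjusted p = 0.0212). Mvd measured 5.02, 4.74, 4.50, 5.60 and 5.76 log2 CPM in controls 1 to 5 and 3.74, 3.67, 3.18, 2.99 and 3.04 in stiripentol libraries 1 to 5. In this gene both groups had their higher values in library set A, and no treated library reached a control (log2 change -1.80, SE 0.27, limma adjusted p = 0.00136).

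Idi1, the isomerase that supplies dimethylallyl pyrophosphate, gave the clearest result of the 38 tested genes, with the smallest adjusted p. It measured 7.38, 7.17, 6.58, 6.78 and 7.23 log2 CPM in controls 1 to 5 and 4.26, 4.28, 4.44, 4.26 and 4.39 in stiripentol libraries 1 to 5. The treated libraries lay within 0.08 (SD) of their mean of 4.32, against 7.03 ± 0.33 in controls, a 6.51-fold fall (log2 change -2.70, SE 0.16, limma adjusted p = 1.67e-05). A copy, Gm13502, is 100% identical over 684 bases and is listed with 1419 control and 248 stiripentol reads, against 35635 and 5828 for Idi1, so both had fewer reads with stiripentol. Fdps, which makes farnesyl pyrophosphate, measured 7.84, 7.78, 6.90, 8.54 and 8.71 log2 CPM in controls 1 to 5 and 6.53, 6.47, 5.98, 5.74 and 5.71 in stiripentol libraries 1 to 5. The lowest control was replicate 3 and the highest treated library was replicate 1, with no overlap (log2 change -1.87, SE 0.32, limma adjusted p = 0.00267). Ggps1, which draws farnesyl pyrophosphate off into geranylgeranyl pyrophosphate for protein prenylation and away from sterols, was not called (log2 change -0.03, SE 0.11, limma adjusted p = 0.873). It measured 5.07, 5.03, 4.92, 5.22 and 5.22 log2 CPM in controls 1 to 5 and 4.90, 4.99, 5.15, 5.11 and 5.18 in stiripentol libraries 1 to 5. The groups overlapped, and the 95% interval of the change was -0.28 to 0.22. Exons of Ggps1 overlap those of Arid4b on the opposite strand over 257 bases, and Arid4b had 17842 control and 15744 stiripentol reads.

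From squalene to cholesterol, 10 of 12 enzymes were called lower, with a median log2 change of -1.11. Fdft1, squalene synthase, measured 6.62, 6.57, 6.21, 6.88 and 7.28 log2 CPM in controls 1 to 5 and 6.35, 6.33, 5.62, 5.61 and 5.56 in stiripentol libraries 1 to 5. Stiripentol 1 and 2 lay above control 3, so the groups overlapped (log2 change -0.82, SE 0.23, limma adjusted p = 0.0253). Its annotated exons overlap those of Ctsb on the opposite strand over 774 bases, and Ctsb had 194113 control and 380873 stiripentol reads. Whether the counting used strand is not given in the sources used here, so the value of Fdft1 is uncertain to that extent. Sqle, squalene epoxidase, measured 8.08, 7.89, 7.56, 7.10 and 7.41 log2 CPM in controls 1 to 5 and 5.75, 5.83, 6.00, 5.99 and 6.03 in stiripentol libraries 1 to 5. The treated libraries spanned 5.75 to 6.03, all below the controls (log2 change -1.69, SE 0.17, limma adjusted p = 0.000183). Lss, which closes squalene epoxide into lanosterol, measured 6.40, 6.31, 6.00, 6.57 and 6.92 log2 CPM in controls 1 to 5 and 4.98, 5.12, 5.44, 5.46 and 5.52 in stiripentol libraries 1 to 5. Here the lowest values were those of stiripentol 1 and 2 (log2 change -1.14, SE 0.18, limma adjusted p = 0.00162).

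Lanosterol is trimmed by Cyp51 and then by Msmo1, Nsdhl and Hsd17b7, which act in turn to remove methyl groups. Cyp51 measured 7.44, 7.29, 6.78, 7.10 and 7.34 log2 CPM in controls 1 to 5 and 6.00, 5.92, 5.93, 5.82 and 5.80 in stiripentol libraries 1 to 5. Both groups were tight and apart, with a 2.46-fold fall (log2 change -1.30, SE 0.13, limma adjusted p = 0.000178). Exons of Cyp51 overlap those of Akap9 on the opposite strand over 166 bases, and Akap9 had 17634 control and 31299 stiripentol reads. Msmo1, the methylsterol oxidase, measured 7.57, 7.45, 7.02, 6.82 and 7.13 log2 CPM in controls 1 to 5 and 6.24, 6.28, 5.87, 5.72 and 5.83 in stiripentol libraries 1 to 5. The groups did not overlap, and the treated libraries of set B were the lowest (log2 change -1.21, SE 0.17, limma adjusted p = 0.000955). Nsdhl, the decarboxylating dehydrogenase, measured 5.69, 5.48, 4.82, 5.56 and 5.93 log2 CPM in controls 1 to 5 and 3.66, 3.49, 3.95, 3.83 and 3.94 in stiripentol libraries 1 to 5. Control 3 was the lowest control and still lay above all treated libraries (log2 change -1.72, SE 0.20, limma adjusted p = 0.000374). Hsd17b7, the ketoreductase that completes the removal and that also acts on estrone, had the largest fall of the 38 tested genes. It measured 6.13, 5.86, 5.73, 4.96 and 5.30 log2 CPM in controls 1 to 5 and 1.14, 1.00, 3.31, 3.41 and 3.66 in stiripentol libraries 1 to 5. The treated libraries were themselves split, with stiripentol 1 and 2 more than 2 log2 units below stiripentol 3 to 5 (log2 change -3.09, SE 0.55, limma adjusted p = 0.00294). By reads, it ranged from 114 to 4560 per library, and the mean fall was 8.53-fold.

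Of the 5 remaining enzymes, 3 were called. Sc5d, the sterol desaturase, measured 6.25, 6.13, 5.68, 6.44 and 6.52 log2 CPM in controls 1 to 5 and 5.84, 5.71, 5.50, 5.46 and 5.49 in stiripentol libraries 1 to 5. Stiripentol 1 and 2 overlapped with control 3 (log2 change -0.61, SE 0.16, limma adjusted p = 0.0205). Dhcr7, the reductase of the final step of one route to cholesterol, measured 4.95, 4.83, 4.55, 5.56 and 5.75 log2 CPM in controls 1 to 5 and 3.62, 3.66, 4.29, 4.31 and 4.33 in stiripentol libraries 1 to 5. The groups did not overlap, with the highest values in controls 4 and 5 and the lowest in stiripentol 1 and 2 (log2 change -1.09, SE 0.26, limma adjusted p = 0.0127). Ebp, the isomerase before them, was 5.50 ± 0.07 in controls and 5.04 ± 0.16 with stiripentol (SD, n = 5 each), a small difference against a small spread (log2 change -0.46, SE 0.11, limma adjusted p = 0.0123). Tm7sf2 and Lbr can both reduce the double bond that Cyp51 leaves, and neither was called. Tm7sf2 measured 5.34, 5.41, 5.60, 6.40 and 6.36 log2 CPM in controls 1 to 5 and 6.09, 6.21, 5.70, 5.83 and 5.68 in stiripentol libraries 1 to 5. The order of its libraries followed the library sets more than the treatment (log2 change 0.08, SE 0.23, limma adjusted p = 0.819). Exons of Tm7sf2 overlap those of Vps51 on the same strand over 532 bases, and Vps51 had 2241 control and 3262 stiripentol reads. Lbr, which is also a receptor of the nuclear lamina, was 6.55 ± 0.28 in controls and 6.42 ± 0.45 with stiripentol (SD, n = 5 each) (log2 change -0.13, SE 0.22, limma adjusted p = 0.679).

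**Figure D2:**
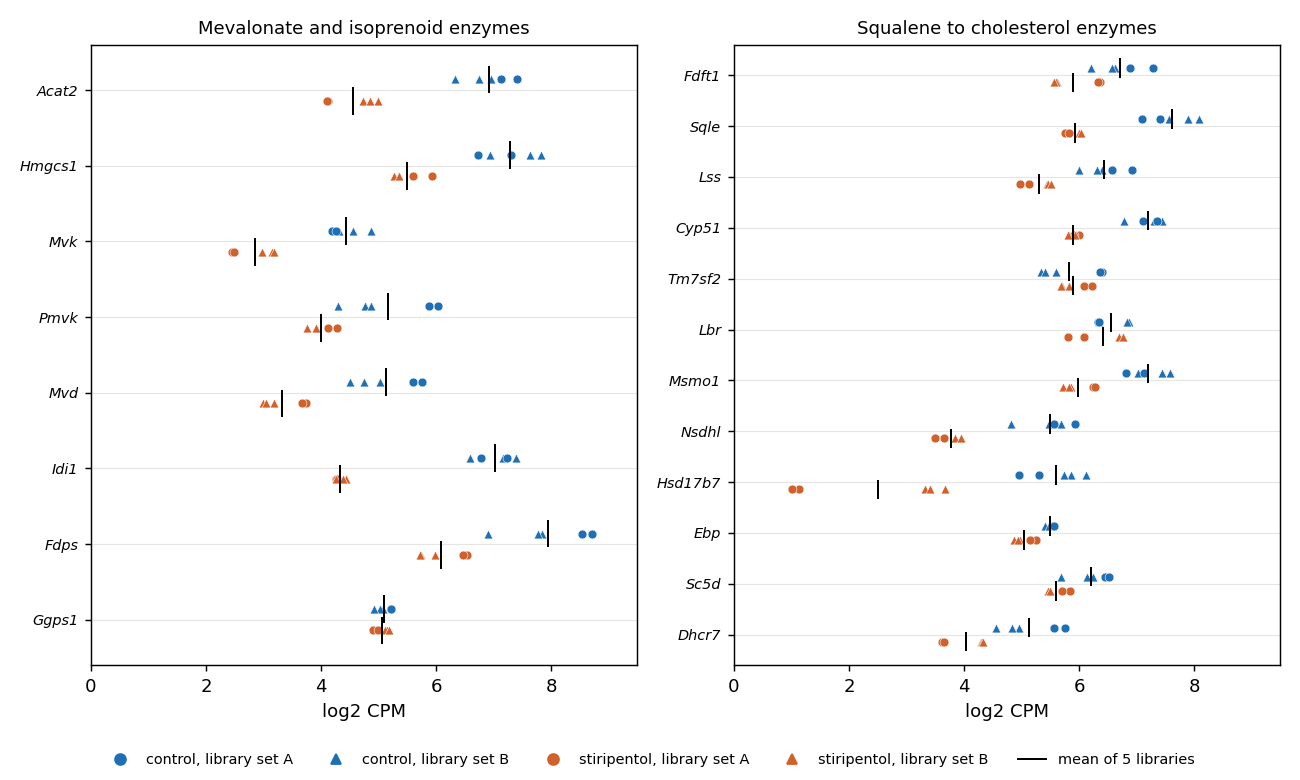
Log2 CPM (x axis) of each sterol synthesis enzyme in each of the 10 libraries, with controls in blue and stiripentol in orange, circles for library set A and triangles for library set B, and a black line at the mean of 5 libraries. The 2 colours are apart for 15 of the 20 enzymes and mixed for Ggps1, Fdft1, Tm7sf2, Lbr and Sc5d.

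The promoters of these enzymes were read from RefSeq windows on GRCm38.p6 that run from 250 bases before to 50 bases after each gene start. Such windows were found for 32 of the 40 genes (41 windows, since 6 genes have more than 1). The following 5 genes are shown because they carry the main contrasts: Hmgcs1 and Idi1, early enzymes that fell in both library sets, Hsd17b7, the largest fall, Insig1, the SREBP inhibitor that was not called, and Fasn, of the fatty acid branch. Each is the 250 bases before the start, 5′ to 3′ on the strand of the gene, with capitals for the SRE core TCACNCCAC, for the CCAAT box and for the E-box CACGTG, each on either strand (CCAAT reads ATTGG on the other strand).
The positions are chr13:119690101-119690350, plus strand for Hmgcs1, chr13:8885356-8885605, plus strand for Idi1, chr1:169969206-169969455, minus strand for Hsd17b7, chr5:28071162-28071411, plus strand for Insig1 and chr11:120824548-120824797, minus strand for Fasn.
Hmgcs1: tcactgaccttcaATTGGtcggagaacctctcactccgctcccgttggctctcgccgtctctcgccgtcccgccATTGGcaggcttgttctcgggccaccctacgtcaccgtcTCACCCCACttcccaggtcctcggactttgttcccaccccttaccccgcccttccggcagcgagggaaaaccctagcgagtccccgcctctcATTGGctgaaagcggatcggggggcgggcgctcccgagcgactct
Idi1: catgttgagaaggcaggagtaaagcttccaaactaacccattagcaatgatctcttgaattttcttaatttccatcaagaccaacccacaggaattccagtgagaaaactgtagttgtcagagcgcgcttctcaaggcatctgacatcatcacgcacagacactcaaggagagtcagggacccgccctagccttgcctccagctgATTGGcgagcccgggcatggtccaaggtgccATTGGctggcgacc
Hsd17b7: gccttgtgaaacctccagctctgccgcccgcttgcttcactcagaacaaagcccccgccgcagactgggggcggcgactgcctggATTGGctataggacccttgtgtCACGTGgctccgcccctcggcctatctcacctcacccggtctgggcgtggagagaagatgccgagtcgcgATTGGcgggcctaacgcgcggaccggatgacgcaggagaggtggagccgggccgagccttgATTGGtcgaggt
Insig1: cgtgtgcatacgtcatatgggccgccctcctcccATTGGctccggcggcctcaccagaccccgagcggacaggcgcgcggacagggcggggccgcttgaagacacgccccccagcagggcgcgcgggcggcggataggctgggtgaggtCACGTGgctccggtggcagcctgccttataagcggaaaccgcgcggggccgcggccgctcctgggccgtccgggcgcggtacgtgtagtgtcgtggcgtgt
Fasn: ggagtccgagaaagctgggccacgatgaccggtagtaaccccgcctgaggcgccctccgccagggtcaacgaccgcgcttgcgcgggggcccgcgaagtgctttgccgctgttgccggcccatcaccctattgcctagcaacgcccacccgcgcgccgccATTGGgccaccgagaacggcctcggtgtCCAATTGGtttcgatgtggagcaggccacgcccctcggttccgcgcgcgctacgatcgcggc

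The SRE core TCACNCCAC, a strict form of the element through which SREBP acts, was found only in Hmgcs1 among the members with a window. Its first base was at -137, and 1.24% of all 32851 windows held the core. Only this form and the relaxed form below were searched, so a window without a match may still hold an SREBP site. With 1 base relaxed (TCACNCNAC, which includes the core), a match was also found in Nsdhl at -205, against 2.70% of all windows. The CCAAT box, bound by NF-Y, was in the windows of 16 of the 17 sterol synthesis genes with a window, all but Acat2. By windows this was 16 of 20 (80.0%), against 37.4% of all windows and 38.2% of the 11724 windows of the genes tested. The windows of the 3 sterol genes that were not called (Ggps1, Tm7sf2 and Lbr) held it as well. In control, transport and export genes it was in 6 of 15 windows, and in fatty acid genes in 3 of 6. In the printed sequences, Hmgcs1, Hsd17b7 and Fasn hold 3 CCAAT boxes each (2 of those of Fasn overlap on opposite strands), Idi1 holds 2, and Insig1 holds 1. The GC box GGGCGG, bound by Sp1, was in 16 of 20 sterol synthesis windows, against 35.7% of all windows and 63.9% of those of the genes tested. The E-box was in 7.15% of all windows and, in these genes, in Hsd17b7, Dhcr7, Sc5d, Insig1, Abca1 and Scap. These letters describe the reference sequence, and no binding was measured.

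Of the 5 genes of SREBP control, 1 was called, Srebf2, the driver of sterol synthesis. It measured 9.11, 8.95, 8.83, 9.00 and 9.15 log2 CPM in controls 1 to 5 and 8.47, 8.67, 7.92, 7.97 and 7.92 in stiripentol libraries 1 to 5. All treated libraries lay below all controls, by 1.76-fold on average (log2 change -0.82, SE 0.16, limma adjusted p = 0.00482). Srebf1 was not called, with 7.01, 6.97, 6.52, 6.47 and 6.43 log2 CPM in controls 1 to 5 and 7.11, 7.18, 6.50, 6.58 and 6.49 in stiripentol libraries 1 to 5. The 2 highest values were stiripentol 1 and 2, and the other 3 treated libraries lay among the controls (log2 change 0.09, SE 0.19, limma adjusted p = 0.736). Its exons overlap those of Rai1 on the opposite strand over 109 bases. Scap, the escort of SREBP, was 5.95 ± 0.41 in controls and 5.84 ± 0.37 with stiripentol (SD, n = 5 each) (log2 change -0.11, SE 0.23, limma adjusted p = 0.731).

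The Insig genes, which hold back SREBP and of which Insig1 is itself an SREBP target, were not called either. Insig1 measured 7.09, 6.98, 6.42, 7.87 and 8.06 log2 CPM in controls 1 to 5 and 8.40, 8.43, 6.45, 6.33 and 6.33 in stiripentol libraries 1 to 5. Its spread was wider between the library sets than between the groups, with stiripentol 1 and 2 the highest of all 10 libraries and stiripentol 4 and 5 the lowest (log2 change -0.10, SE 0.51, limma adjusted p = 0.901). The 95% interval of the change, -1.22 to 1.03, includes the median change of the enzymes from squalene to cholesterol, -1.11. Insig2 measured 5.45, 5.48, 5.65, 6.18 and 6.22 log2 CPM in controls 1 to 5 and 6.06, 6.04, 5.98, 5.89 and 5.98 in stiripentol libraries 1 to 5. Treated libraries lay between the controls of set B and those of set A (log2 change 0.19, SE 0.17, limma adjusted p = 0.408).

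Stard4, a carrier that moves sterol through the cytosol, fell with the enzymes. It measured 6.69, 6.61, 6.11, 6.46 and 6.87 log2 CPM in controls 1 to 5 and 4.42, 4.52, 4.77, 4.69 and 4.68 in stiripentol libraries 1 to 5. No treated library came near a control, and the fall was 3.81-fold (log2 change -1.93, SE 0.15, limma adjusted p = 4.53e-05). The exporters and LXR genes were low or not called. Abca1, the exporter of cholesterol to lipoproteins, had 61 to 310 reads and measured 2.26, 2.14, 1.80, 1.39 and 1.47 log2 CPM in controls 1 to 5 and 1.37, 1.79, 0.89, 0.92 and 0.85 in stiripentol libraries 1 to 5. The treated libraries of set B were the lowest, stiripentol 1 lay just under the lowest control, and stiripentol 2 lay among the controls (log2 change -0.65, SE 0.27, limma adjusted p = 0.0979). Mylip, an LXR target that marks lipoprotein receptors for degradation, had 32 to 298 reads and measured 0.15, 0.47, 0.16, 2.24 and 2.13 log2 CPM in controls 1 to 5 and -0.82, -0.12, 1.09, 1.11 and 1.40 in stiripentol libraries 1 to 5. The 2 highest values were controls 4 and 5, and the 2 lowest were stiripentol 1 and 2 (log2 change -0.50, SE 0.58, limma adjusted p = 0.533). Nr1h2, the LXR found in most tissues, was 6.08 ± 0.31 in controls and 5.80 ± 0.09 with stiripentol (SD, n = 5 each) (log2 change -0.27, SE 0.15, limma adjusted p = 0.182). Abcg1 (1 to 17 reads per library) and Nr1h3 (3 to 77 reads) were under the filter and were not tested, and both overlapped between the groups.

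**Figure D3:**
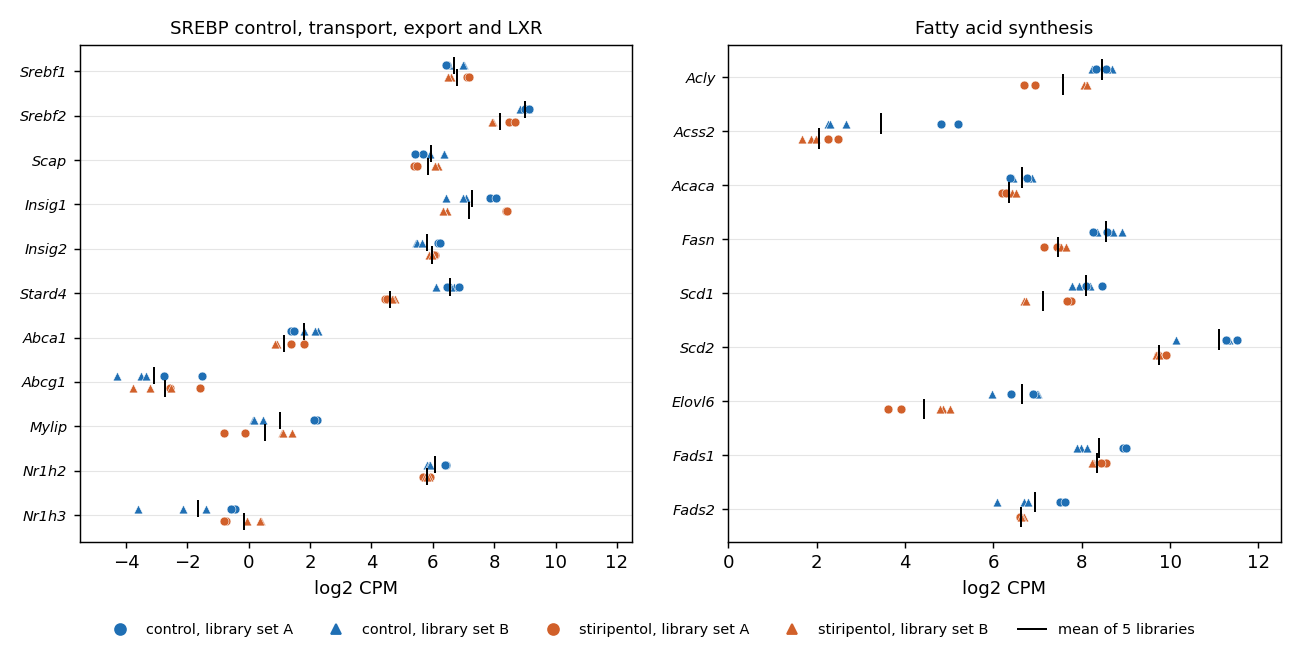
Log2 CPM (x axis) in each of the 10 libraries for the genes of SREBP control, transport, export and LXR (left) and for fatty acid enzymes (right), with controls in blue, stiripentol in orange, circles for library set A, triangles for set B and a black line at the mean of 5 libraries. Srebf2 and Stard4 are the 2 genes on the left whose colours do not mix, and on the right they are Acly, Fasn, Scd1, Scd2 and Elovl6.

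Fatty acid synthesis starts from acetyl-CoA in the cytosol, which Acly makes from citrate and Acss2 from acetate. Acly measured 8.68, 8.58, 8.22, 8.32 and 8.54 log2 CPM in controls 1 to 5 and 6.68, 6.93, 8.10, 8.05 and 8.13 in stiripentol libraries 1 to 5. Stiripentol 1 and 2 were far below the rest, while stiripentol 3 to 5 lay just under the lowest control (log2 change -0.89, SE 0.29, limma adjusted p = 0.0436). This adjusted p is the largest of the 24 calls. Acss2 measured 2.25, 2.67, 2.30, 4.80 and 5.21 log2 CPM in controls 1 to 5 and 2.26, 2.49, 1.87, 1.66 and 1.99 in stiripentol libraries 1 to 5. Controls 4 and 5 stood more than 2 log2 units above controls 1 to 3, the groups overlapped, and the gene was not called (log2 change -1.40, SE 0.58, limma adjusted p = 0.0967). Its exons overlap Gss on the opposite strand over 395 bases, and Gss had more reads (10499 in controls and 18162 with stiripentol, against 3591 and 1224 for Acss2).

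Acaca, the carboxylase that makes malonyl-CoA, was 6.65 ± 0.23 in controls and 6.36 ± 0.13 with stiripentol (SD, n = 5 each) and was not called (log2 change -0.28, SE 0.13, limma adjusted p = 0.112). A copy, Gm5182, shares 6118 aligned bases at 99.2% identity and had 2503 control and 2453 stiripentol reads, so the split of reads between them is uncertain. Fasn, the synthase that builds palmitate, measured 8.92, 8.70, 8.34, 8.25 and 8.58 log2 CPM in controls 1 to 5 and 7.15, 7.44, 7.50, 7.54 and 7.64 in stiripentol libraries 1 to 5. Its fall of 2.15-fold separated the groups in all libraries (log2 change -1.10, SE 0.14, limma adjusted p = 0.000648).

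The elongase Elovl6 and the desaturases Scd1 and Scd2 fell with Fasn. Elovl6, which lengthens palmitate, measured 7.00, 6.98, 5.96, 6.39 and 6.89 log2 CPM in controls 1 to 5 and 3.61, 3.92, 4.86, 4.79 and 5.02 in stiripentol libraries 1 to 5. This was the largest fall of the branch, 4.62-fold, and again stiripentol 1 and 2 were the lowest (log2 change -2.21, SE 0.31, limma adjusted p = 0.000953). Scd1, which makes monounsaturated fatty acids, measured 8.20, 7.95, 7.78, 8.10 and 8.45 log2 CPM in controls 1 to 5 and 7.75, 7.67, 6.70, 6.70 and 6.74 in stiripentol libraries 1 to 5. Stiripentol 1 lay just under control 3, and the treated libraries of set B were the lowest (log2 change -0.98, SE 0.24, limma adjusted p = 0.0143). Scd2, of the same function, measured 11.33, 11.29, 10.14, 11.26 and 11.51 log2 CPM in controls 1 to 5 and 9.73, 9.92, 9.71, 9.67 and 9.75 in stiripentol libraries 1 to 5. Control 3 was more than 1 log2 unit below the other controls and still above all treated libraries (log2 change -1.35, SE 0.23, limma adjusted p = 0.00234).

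The desaturases of polyunsaturated fatty acids, Fads1 and Fads2, were not called. Fads1 measured 7.98, 8.12, 7.88, 8.94 and 9.00 log2 CPM in controls 1 to 5 and 8.54, 8.43, 8.27, 8.25 and 8.24 in stiripentol libraries 1 to 5. The treated libraries lay between the controls of the 2 library sets (log2 change -0.04, SE 0.23, limma adjusted p = 0.91). Fads2 measured 6.70, 6.78, 6.09, 7.52 and 7.63 log2 CPM in controls 1 to 5 and 6.61, 6.60, 6.69, 6.64 and 6.61 in stiripentol libraries 1 to 5. Its treated libraries agreed to within 0.04 (SD) while the controls ranged from 6.09 to 7.63 (log2 change -0.31, SE 0.26, limma adjusted p = 0.375).

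The change was also taken within each library set. In 28 of the 38 genes it was negative in both sets, among them 17 of the 20 sterol enzymes. The share of all genes negative in both sets was not counted. The difference between the sets was tested with the limma interaction of group and set. It passed at an adjusted p under 0.05 for 23 of the 38, where 63.3% of all genes tested passed. This share of members is not above the background. The spread used by the test is that of libraries within clusters, so its p-values do not measure the spread between clusters. Among these 23 the fall was larger, or the rise smaller, in set A for 16 and in set B for 7. The median change of all genes tested was also lower in set A (-0.25) than in set B (0.08). How this direction splits over all genes was not counted. Hsd17b7 changed by -4.06 in set A and -2.45 in set B (interaction adjusted p = 6.87e-05). Dhcr7 had -2.02 and -0.47 (interaction adjusted p = 1.41e-05), and Acly -1.62 and -0.40 (interaction adjusted p = 0.000171). Hmgcs1 went the other way, with -1.25 and -2.13 (interaction adjusted p = 0.0357), as did Srebf2 with -0.51 and -1.03 (interaction adjusted p = 0.00594). Idi1 had -2.73 and -2.68, a difference of -0.05 with a 95% interval of -0.67 to 0.57, and Fasn had -1.12 and -1.09, a difference of -0.03 with an interval of -0.52 to 0.46.

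In 9 genes the 2 sets went in opposite directions with an interaction that passed, and none of these 9 was called over all 10 libraries. Shares over all genes were not counted for opposite directions or for changes negative in both sets, under either matching below. The widest was Mylip, at -2.66 in set A and 0.94 in set B (interaction adjusted p = 5.69e-06). Srebf1 had 0.70 and -0.31 (interaction adjusted p = 0.000507), and Insig1 0.45 and -0.46 (interaction adjusted p = 0.00469). Insig2 had -0.15 and 0.42 (interaction adjusted p = 0.00125). Abca1 had 0.15 and -1.18 (interaction adjusted p = 0.00106). The others were Ggps1, Tm7sf2, Fads1 and Fads2, all with a negative change in set A and a positive one in set B. How the clusters are matched decides some of these directions. With control set A set against stiripentol set B and the reverse (chosen with the values known) 22 of the 38 interactions passed (71.9% of all genes tested), 30 of 38 changes were negative in both, and 5 of the 9 kept opposite signs (Tm7sf2, Insig1, Insig2, Fads1 and Fads2). Srebf1, Abca1, Mylip and Ggps1 then had the same sign in both. Lbr and Scap joined the genes with opposite signs and an interaction that passed. Against control set A and control set B, Lbr had 0.40 and -0.74 (limma interaction adjusted p = 0.000384). Scap had 0.54 and -0.77 (limma interaction adjusted p = 8.73e-05). The changes of the 24 called genes were negative in both sets under either matching. For the 22 whose groups did not overlap, this follows from the lack of overlap and is no test of the matching.

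**Figure D4:**
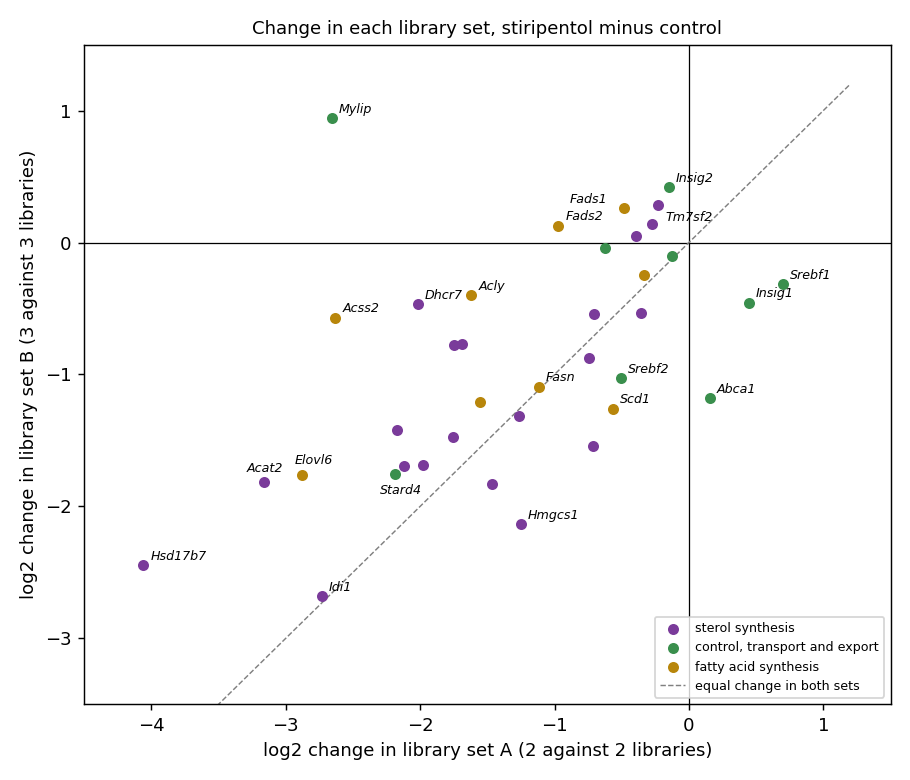
Log2 change of the 38 tested genes in library set A (x axis, 2 against 2 libraries) against library set B (y axis, 3 against 3), coloured by branch, with a dashed line where both are equal. Sterol enzymes (purple) lie mostly in the lower left quadrant, where both changes are negative, and Mylip, Srebf1, Insig1 and Abca1 lie away from it.

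Over the 20 sterol enzymes the changes in the 2 sets correlated at 0.739 (Pearson), over the 9 fatty acid enzymes at 0.508, over the 9 genes of control and export at -0.09, and over all 12306 genes tested at 0.401. These are descriptions across genes, which share libraries and are not independent replicates. Each set was also fitted alone, where p-values measure only the spread of libraries within clusters. In set A, 31 of the 38 genes were called lower (46.5% of all genes tested) and 2 higher (25.7%), the 2 being Srebf1 and Insig1. In set B, 27 were called lower (27.0%) and 4 higher (37.7%), the 4 being Tm7sf2, Insig2, Mylip and Fads1. All 24 genes called lower over the 10 libraries were also called lower in each set alone. Those calls reuse the same libraries, so they are not separate support.

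Other genes of the pathway, from lists of sterol traffic, lipid assembly and LXR partners, were fewer in their calls. Of 19 genes of sterol traffic, esterification and SREBP processing, 1 was lower and 2 were higher, where 14.1% and 13.6% of all genes tested were, so these shares are not above the background. Npc1, which exports cholesterol from lysosomes, rose, with 4.95, 4.95, 5.75, 6.08 and 6.01 log2 CPM in controls 1 to 5 and 7.44, 7.48, 7.21, 7.26 and 7.34 in stiripentol libraries 1 to 5. No library overlapped (log2 change 1.80, SE 0.23, limma adjusted p = 0.000605). Mbtps1, a protease that cuts SREBP, was lower (log2 change -0.45, SE 0.11, limma adjusted p = 0.0133), and Erlin1, which binds Insig and sterols in the endoplasmic reticulum, was higher with overlapping groups (log2 change 0.93, SE 0.24, limma adjusted p = 0.0188).

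Of 24 genes of fatty acid activation, elongation and lipid assembly, 19 were tested, 1 was lower and 3 were higher, which is near or below the same background. The called genes are given for their own values. Aacs, which activates acetoacetate for lipid synthesis, measured 6.45, 6.23, 5.60, 5.41 and 5.49 log2 CPM in controls 1 to 5 and 3.82, 4.25, 4.67, 4.73 and 4.74 in stiripentol libraries 1 to 5. Every treated library was below every control (log2 change -1.39, SE 0.25, limma adjusted p = 0.00336). Dgat2, which makes triglyceride, measured 1.62, 1.99, 1.07, 2.53 and 2.24 log2 CPM in controls 1 to 5 and 3.30, 3.48, 4.17, 4.11 and 4.16 in stiripentol libraries 1 to 5. It was higher in all treated libraries (log2 change 1.96, SE 0.30, limma adjusted p = 0.00158). Plin2, the coat protein of lipid droplets, was also higher (log2 change 0.69, SE 0.16, limma adjusted p = 0.0121), as was Acsl1, which activates fatty acids (log2 change 0.84, SE 0.17, limma adjusted p = 0.00603). Of 6 LXR targets and partners, 4 were tested and 1 was called, Arl4c, which was lower (log2 change -0.96, SE 0.15, limma adjusted p = 0.00173). Beside 14.1% lower and 13.6% higher of all genes tested, 1 call among 4 genes is no result about this list.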

How the data were processed

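The deposited values are log2 CPM per gene and library, normalized by the authors with GENAVi according to the study's methods; the build is mm10 per the submitters' processing notes, and aligner, annotation and strand setting are not given in the sources used here. On the library kit the sources differ: Lexogen QuantSeq for 3′ ends in the study's methods, TruSeq total RNA in the labels. The authors' columns of group means, fold changes and p-values were not used. Depth came from whole reads recovered from the log2 CPM (100% of values whole within 0.05 reads, prior 0.837 to 2.38 reads). Reads are not independent molecules, so depth covers counting error only.

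Columns were matched to samples by name. Groups were compared with limma 3.58.1 in R 4.3.3 (lmFit, eBayes with a trend) on the deposited log2 values, over 12306 genes with a mean log2 CPM above 0, with Benjamini-Hochberg adjustment and a threshold of 0.05. Changes are on this log2 scale, which understates changes of low genes. The fit was tested on simulated counts drawn independently for each library, without clusters of libraries, so that test does not cover the clustering seen here. Members and lists were chosen with earlier results of these data known. By rule, all 40 genes were named, and each library's value is printed for called genes with a change above 0.5, for 5 chosen genes, and for genes with opposite changes in the library sets. Some listed genes are not reported here. From each other list the called genes with the largest rise and fall were named, and up to 3 more. Near-identical transcripts (95% identity over 300 bases) and overlapping exons came from GENCODE M21 on GRCm38, and promoter windows from RefSeq. Alternatives covered the replicate block, library sets, left-out libraries, scaling, filters, pseudocounts of 0.1 and 1 CPM, voom on recovered reads and, chosen after the values were seen, the matching of library sets.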

Additional observations from a re-analysis of the deposited data

Results flagged for a closer look

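One value stood apart from its group. Scd2 in control 3 was 10.14 log2 CPM, and its gap to the next control was 0.817 of the range of the 5 controls. Of 80 groups of 5 values examined in this way, 1 held such a value, where chance gives about 4.

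For 23 of the 38 tested genes the change differed between library sets A and B (limma interaction, adjusted p under 0.05). Of all genes tested 63.3% did, so this share is not above the background and the values are given for each gene alone. The values given are the log2 change in set A minus that in set B. Among sterol enzymes they were -1.34 for Acat2, 0.884 for Hmgcs1, -0.973 for Pmvk, -0.416 for Ggps1, -0.924 for Lss, -0.513 for Tm7sf2, 0.827 for Msmo1, -0.75 for Nsdhl, -1.61 for Hsd17b7 and -1.55 for Dhcr7. Among genes of control, transport and export they were 1.01 for Srebf1, 0.522 for Srebf2, 0.903 for Insig1, -0.571 for Insig2, 1.34 for Abca1, -3.6 for Mylip and -0.579 for Nr1h2. Among fatty acid enzymes they were -1.22 for Acly, -2.06 for Acss2, 0.696 for Scd1, -1.12 for Elovl6, -0.741 for Fads1 and -1.1 for Fads2. In controls, the set A mean of Acss2 was 2.60 log2 units above the set B mean, and that of Mylip 1.93 units above. What sets the library sets apart is not in the labels, and its part in these differences was not tested.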

How the results depend on the processing

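Of the 24 falls, 23 to 24 kept their call under other filters, pseudocounts, voom, quantile normalization and each left-out library, 21 with median-of-ratios scaling and 24 with the library set as a term. Quantile normalization lost Ebp. Quantile normalization moved the median change of all genes from -0.0563 to 0.0459. With 1 mean per group and library set, 0 sterol, 0 control and export and 0 fatty acid genes passed (limma, 0 of all genes tested). There, 20 members had an unadjusted p under 0.05, a count without its share over all genes. All other p-values treat clustered libraries as separate replicates. In set A alone, control and export had 4 lower and 2 higher calls and fatty acid 9 lower. In set B alone, control and export had 4 lower and 2 higher calls, sterol and fatty acid 1 higher each, and the fatty acid median was -0.571. Of all genes tested, 46.5% were lower and 25.7% higher in set A alone, and 27.0% lower and 37.7% higher in set B alone. The counts of control and export rest on 9 tested genes, and those of fatty acid on 9. The interaction passed for 20 to 24 of 38 members under the other settings and left-out libraries. Of all genes tested, 63.3% passed in the main fit and 71.9% with the library sets matched the other way round. Shares under the remaining settings were not counted, so the range has no background of its own.

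The replicate numbers of the labels do not pair the libraries, since deviations of same-numbered libraries correlated at -0.24 to 0.0612 and 0 libraries correlated best with their own number. With the replicate block 19 members were lower (1062 of all genes), without Acly, Ebp, Fdft1, Pmvk and Sc5d.

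Changes that turned sign were all of uncalled genes. In set A alone these were Tm7sf2 -0.23, Insig1 0.45, Insig2 -0.15 and Abca1 0.15. In set B alone they were Ggps1 0.14, Lbr 0.051, Srebf1 -0.31, Mylip 0.94, Fads1 0.26 and Fads2 0.13. Ggps1 was 0.051 under quantile normalization and 0.050 under median-of-ratios scaling, where Fads1 was 0.038. Over left-out libraries, the changes ran over Fads1 -0.164 to 0.116, Ggps1 -0.0705 to 0.0139, Insig1 -0.406 to 0.119, Lbr -0.213 to 0.0267, Srebf1 -0.0124 to 0.173 and Tm7sf2 -0.0424 to 0.224. The cause was not tested.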
